A study of Homo sapiens with 12 samples.

Results

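The LMO genes LMO1, LMO2, LMO3 and LMO4 and their cofactor gene LDB1 were followed in Granta 519, an established mantle cell lymphoma (MCL) cell line that expresses the transcription factor SOX11. The genes were chosen by name, with earlier results of these data known. The measured value used to pick among probe sets of a gene was the mean signal over all 12 arrays. All 5 genes were found on the Affymetrix Human Gene 1.0 ST array, each through a single probe set that lists its symbol alone. Thus 5 of 33297 probe sets were described, and 5 of the 18417 genes that some probe set names alone. A choice among such probe sets therefore never had to be made. The 12 arrays came from 3 groups of 4: cells nucleofected with SOX11 siRNA, cells nucleofected with a non-targeting control siRNA, and untreated cells. In both siRNA groups 4000000 cells received 100 pmol of siRNA by electroporation, and RNA was taken 20 hours later from individual transfections. All arrays were of 1 cell line. The labels do not say whether untreated cells were electroporated, so electroporation, its solution and the control siRNA cannot be told apart where control siRNA is set against untreated cells. No harvest time or cell number is given for untreated cells, so culture time, cell density and handling cannot be told apart from these either.

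LMO proteins consist of little more than a pair of LIM domains, zinc-binding modules that hold proteins together and do not bind DNA. They act as bridges: LDB1 binds their LIM domains and dimerizes, and so joins LMO proteins to DNA-binding partners such as TAL1, LYL1 and GATA factors, while SSBP proteins stabilize LDB1. LMO1 and LMO2 are best known as oncogenes of T cell leukaemia, LMO2 also as a gene of blood stem cells and germinal centre B cells, LMO3 as a gene of the nervous system and of neuroblastoma, and LMO4 as a broadly expressed member that is also studied in breast epithelium.

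The deposited values were linear PLIER signals, and fold changes below are differences of mean log2(signal + 16), a scale on which the changes of dim genes are understated. They came from one limma fit of the 3 groups, with p-values adjusted over all 33297 probe sets, and a call was an adjusted p under 0.05. Array medians ranged over 69.2 to 91.8, with SOX11 siRNA replicate 3 the lowest, and within groups the arrays correlated at 0.989 to 0.995 (Pearson's r across probe sets). SOX11, the targeted gene, had signals of 227, 229, 188 and 225 with SOX11 siRNA, against 1096, 1191, 1112 and 1026 with control siRNA and 1028, 978, 978 and 1041 in untreated cells. Of 6 B cell markers 5 were measured (MS4A1, CD79A, CD79B, PAX5 and CD22), and all of these, like CCND1, the cyclin D1 gene that drives MCL, had a mean signal above 345, the upper quartile of all probe sets. None of 7 T and NK cell, 5 myeloid, 5 erythroid and platelet or 5 epithelial markers measured did, and 2 of 6 endothelial and fibroblast markers did (PECAM1 and CDH5).

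LMO3 was the only member called in the limma fit. Its signal was 232, 222, 207 and 202 on the SOX11 siRNA arrays and 270.1, 275, 288 and 214 on the control siRNA arrays, against 557, 511, 518 and 501 on the untreated arrays. Every nucleofected array lay below every untreated array, whichever siRNA had been given. With control siRNA it fell to 262 ± 32.9, against 522 ± 24.5 in untreated cells (SD, n = 4 each), so the linear mean fell by 49.9% (log2 fold change -0.96, standard error 0.0986, 95% interval -1.17 to -0.75, adjusted p = 0.00045 from limma). This was the probe set with rank 4 by p and rank 13 by size of fall among all 33297. The members were chosen with earlier results of these data known, which the ranks and p-values of LMO3 do not allow for. With SOX11 siRNA it averaged 216 ± 13.6 (SD, n = 4), and against the same untreated arrays the mean fell by 58.6% (-1.21 on the log2 scale with the same standard error, limma adjusted p = 1.1e-05). The untreated arrays are shared by both comparisons, which are therefore not independent of each other. In bulk RNA, fewer cells that express a gene and less of its RNA per cell cannot be told apart.

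**Figure D1:**
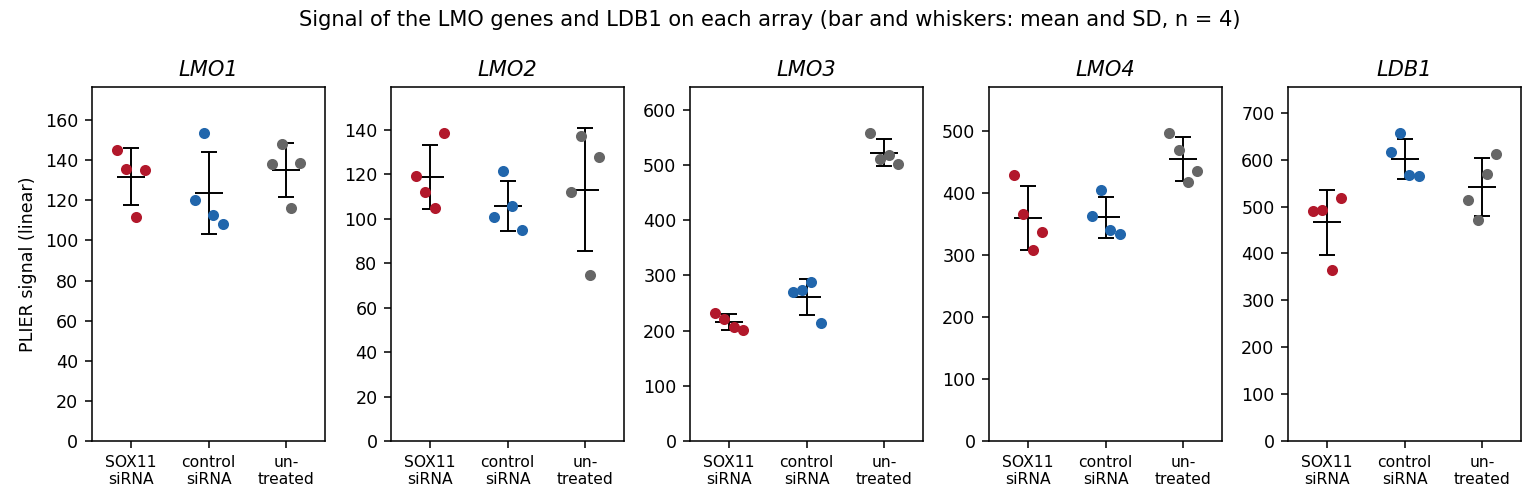
PLIER signal (linear, y axis from 0) of LMO1, LMO2, LMO3, LMO4 and LDB1 on each array of the SOX11 siRNA, control siRNA and untreated groups, with points for arrays and bars and whiskers for mean and SD of 4 arrays. LMO3 lies at 202 to 288 on the 8 nucleofected arrays and at 501 to 557 on the 4 untreated arrays, whereas the groups of LMO1 and LMO2 overlap.

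Between the siRNA groups, LMO3 was at 216 ± 13.6 with SOX11 siRNA against 262 ± 32.9 with control siRNA (SD, n = 4 each). The log2 fold change was -0.25 (standard error 0.0986, 95% interval -0.46 to -0.04), with an unadjusted p of 0.0209 and an adjusted p = 0.978 from limma, which did not pass. The groups overlapped, because control siRNA replicate 4, at 214, lay below SOX11 siRNA replicates 1 and 2. SOX11 siRNA replicates 3 and 4 lay below every control siRNA array, and without control siRNA replicate 4 the log2 fold change was -0.34, which did not pass either. The fall of LMO3 against untreated cells was called under each of 11 alternative settings and without each of the 12 arrays. For control siRNA the log2 fold change then lay between -1.01 and -0.87, and for SOX11 siRNA between -1.27 and -1.11.

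Set against the mean of the other 4 members on the same array, which takes out a shift in scale shared by all 5, LMO3 stood at -0.07 ± 0.14 with SOX11 siRNA, 0.14 ± 0.16 with control siRNA and 1.02 ± 0.14 in untreated cells on the log2 scale (SD, n = 4 each). This difference between probe sets has no meaning as a level, but it ranged from -0.24 to 0.10, from -0.0034 to 0.35 and from 0.88 to 1.19 in these groups. Again the untreated arrays stood clear of both siRNA groups, and the siRNA groups overlapped.

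None of the 6 protein-coding genes taken from around LMO3 passed the test against untreated cells with either siRNA. In the RefSeq annotation MGST1, a microsomal glutathione transferase gene, overlaps LMO3, and its signal was 1046 ± 126 with control siRNA against 1240 ± 167 in untreated cells (SD, n = 4 each; -0.24 ± 0.113 on the log2 scale, limma adjusted p = 0.585, where ± is the standard error). DERA, an aldolase of deoxyribose phosphate, was at 635 ± 59.0 against 694 ± 33.1 (SD, n = 4 each; log2 fold change -0.13, adjusted p = 0.788 from limma). SLC15A5, RERGL, PIK3C2G and PLCZ1, the other 4 of these 6 genes, were dim. Their mean signals were 9.8 to 30.7 in both groups, with adjusted p-values of 0.787 to 0.985 from limma. The 6 were not simply the nearest genes. Equal numbers were taken from lower coordinates, MGST1 included, and from higher coordinates. These neighbours were chosen after the values of LMO3 were known.

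LMO3 has 5 annotated start sites with promoter windows in the RefSeq table (GRCh38.p14), each window running from 250 bases before the start to 50 after it. A pair of them is shown here because SOX11 was the factor silenced and because they hold short forms of the sequence that SOX proteins bind. The capitals mark ACAATG or ACAAAG on either strand. The first is the window farthest upstream and the other that of the third start.
LMO3 start 1, chr12:16608165-16608464, minus strand: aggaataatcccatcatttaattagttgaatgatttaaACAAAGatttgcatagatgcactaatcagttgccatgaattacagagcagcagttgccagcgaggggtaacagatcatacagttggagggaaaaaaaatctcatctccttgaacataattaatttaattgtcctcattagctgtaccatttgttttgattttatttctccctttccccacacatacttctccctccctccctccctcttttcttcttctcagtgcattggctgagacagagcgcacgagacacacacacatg
LMO3 start 3, chr12:16606113-16606412, minus strand: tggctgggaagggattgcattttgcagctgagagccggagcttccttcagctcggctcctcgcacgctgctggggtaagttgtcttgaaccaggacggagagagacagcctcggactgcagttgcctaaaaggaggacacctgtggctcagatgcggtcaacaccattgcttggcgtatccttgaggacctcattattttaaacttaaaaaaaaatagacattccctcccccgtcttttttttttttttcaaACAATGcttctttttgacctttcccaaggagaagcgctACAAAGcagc
Of the 5 windows of LMO3, 3 held such a match, the windows of starts 3 and 4 sharing theirs because they overlap. One of 2 windows of LMO4 held a match, and the single windows of LMO1 and LDB1 held none. Among all 35116 promoter windows of the same 300-base length, 24.5% held at least 1 match and 4.82% held at least 2, so a match alone is common. These matches are letters in a window and were not measured as binding sites. LMO2 has no window in the table.

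The genes whose signal most resembled that of LMO3 over the 12 arrays were CHAF1B, a subunit of chromatin assembly factor 1 (Pearson's r = 0.984), DNTT, the template-independent DNA polymerase of immature lymphocytes (r = 0.962), and SCD, a fatty acid desaturase (r = 0.956), out of 11618 probe sets with 1 symbol and a mean at or above that of the median probe set. The correlation of deviations from the group means, which leaves out the step between untreated and nucleofected cells, was lower, at 0.704, 0.50 and 0.628 for these genes, over the same 12 arrays and with array scale as a shared source. These genes were picked by likeness on the same arrays. Their step between untreated and nucleofected cells was therefore largely set by the choice, and its values are given as a description. DNTT had mean signals of 103 with SOX11 siRNA, 132 with control siRNA and 317 in untreated cells (-1.18 on the log2 scale for control siRNA against untreated cells, limma adjusted p = 0.00232). The means of CHAF1B were 345, 366 and 519 (-0.49, adjusted p = 0.0128 from limma) and those of SCD were 859, 994 and 1451 (-0.54, adjusted p = 0.0387 from limma) in the same order of groups. None of them passed between the siRNA groups, each with an adjusted p of 1.

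**Figure D2:**
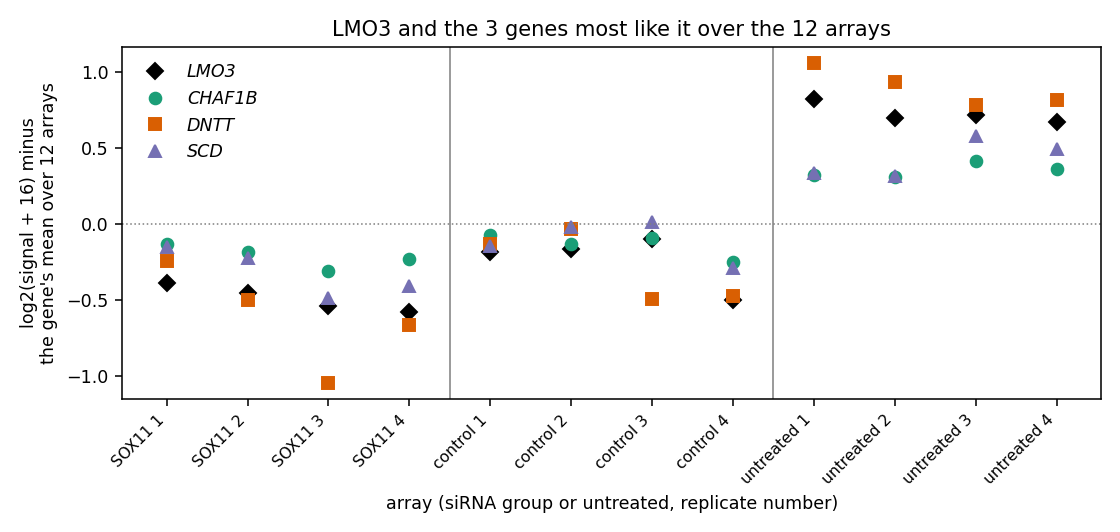
Log2(signal + 16) minus the gene's own mean over the 12 arrays (y axis) for LMO3, CHAF1B, DNTT and SCD on each array (x axis: SOX11 siRNA, control siRNA and untreated, replicates 1 to 4). All 4 genes are above their mean on the 4 untreated arrays, and the step is largest for DNTT, whose log2 fold change was -1.18 with control siRNA. CHAF1B, DNTT and SCD were picked by their likeness to LMO3 on these arrays, so the shared step largely follows from that choice.

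LMO4 had signals of 429, 366, 308 and 337 with SOX11 siRNA and 363, 405, 340 and 334 with control siRNA, against 496, 469, 418 and 435 in untreated cells. The control siRNA arrays all lay below the untreated arrays, while SOX11 siRNA replicate 1 lay within the untreated range. The log2 fold change was -0.32 with control siRNA (standard error 0.108, 95% interval -0.55 to -0.09, unadjusted p = 0.00884, adjusted p = 0.342 from limma) and -0.33 with SOX11 siRNA (adjusted p = 0.139), both against untreated cells, and neither passed. With quantile normalization, alone or with the replicate number as a block, the difference between SOX11 siRNA and untreated cells did pass (adjusted p = 0.0185 and 0.0153, over a range of 0.0153 to 0.361 across all alternatives). Between the siRNA groups the means were 360.1 ± 51.4 with SOX11 siRNA and 361 ± 32.4 with control siRNA (SD, n = 4 each). The 95% interval of that difference was -0.24 to 0.22 on the log2 scale.

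LDB1, the dimerizing cofactor, had signals of 491, 493, 365 and 517 with SOX11 siRNA against 617, 656, 567 and 565 with control siRNA, and 514, 472, 569 and 613 in untreated cells. Here all SOX11 siRNA arrays lay below all control siRNA arrays, and the untreated arrays overlapped both groups. SOX11 siRNA differed from control siRNA by -0.37 on the log2 scale (standard error 0.117, 95% interval -0.61 to -0.12), with an unadjusted p of 0.0068 and an adjusted p = 0.632 from limma, so it was not called. It passed with quantile normalization (adjusted p = 0.0482), while the other alternatives gave 0.0658 to 1. SOX11 siRNA replicate 3, the array with the lowest median, was the lowest of its group for LDB1, LMO1, LMO2 and LMO4, and without it the log2 fold change of LDB1 was -0.26. Against untreated cells LDB1 differed by -0.22 with SOX11 siRNA (95% interval -0.46 to 0.03) and by 0.15 with control siRNA (95% interval -0.10 to 0.40), with adjusted p-values of 0.412 and 0.795 from limma.

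LMO1 and LMO2, the oncogenes of T cell leukaemia, showed no difference that passed. Group means were 124 to 135 for LMO1 and 106 to 119 for LMO2, above the median probe set at 82.9. They lay near some markers of other lineages, such as CD14 (112 to 117) and NKG7 (115 to 125). Most of the other T, NK and myeloid markers were dimmer. Some erythroid, fibroblast and epithelial markers were brighter, among them KLF1 (187 to 200), COL1A1 (172 to 198) and KRT8 (240 to 266). Others were far dimmer, such as HBB (17.6 to 18.8). Whether these probe sets report expression of LMO1 and LMO2 was not tested. LMO1 had signals of 145, 136, 112 and 135 with SOX11 siRNA, 120.1, 153, 113 and 108 with control siRNA, and 138, 148, 116 and 138 in untreated cells. LMO2 had 119, 112, 105 and 138 with SOX11 siRNA, 101, 121, 106 and 94.9 with control siRNA, and 112, 137, 74.7 and 128 in untreated cells. The groups overlapped in all 3 comparisons for both genes. Between the siRNA groups the log2 fold changes were 0.09 for LMO1 (95% interval -0.16 to 0.33) and 0.14 for LMO2 (95% interval -0.16 to 0.45), and with control siRNA against untreated cells -0.12 (95% interval -0.36 to 0.12) and -0.06 (95% interval -0.36 to 0.24). LMO2 varied most among untreated arrays, with a coefficient of variation of 24.4% against 4.7% for LMO3.

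**Figure D3:**
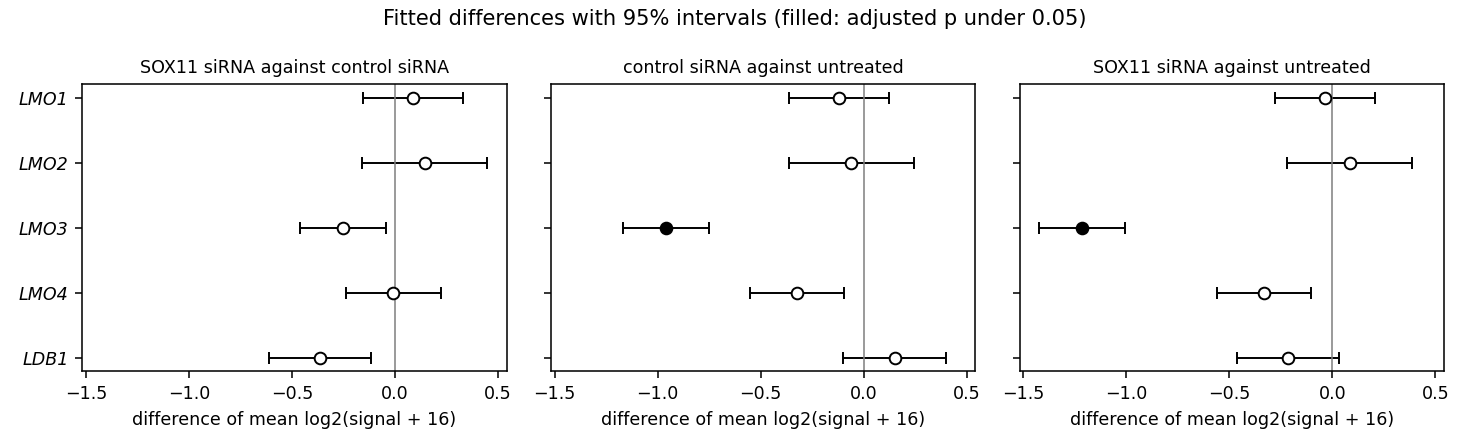
Fitted differences of mean log2(signal + 16) (x axis) for each gene in the 3 comparisons, with 95% intervals, where filled points had an adjusted p under 0.05. LMO3 is filled in both comparisons with untreated cells, at -0.96 and -1.21, and the intervals of LMO4 in those comparisons and of LDB1 and LMO3 between the siRNA groups leave out 0 without passing the adjusted threshold.

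Counted over the 5 genes, SOX11 siRNA against control siRNA gave 0 higher and 0 lower in limma, where 0.00300% of all probe sets were called higher and 0.180% lower (0.183% either way). An unadjusted p under 0.05 was reached by 2 of the 5 (LMO3 and LDB1), against 4.26% of all probe sets, and a one-way analysis of variance of the same values called 0 of 5 after adjustment. The arrays of the groups did not overlap for 1 of 5, LDB1, which was lower, against 1.35% of all probe sets that were lower and 0.601% that were higher without overlap. Control siRNA against untreated cells gave 1 lower, LMO3, and 0 higher, against 0.216% lower and 0.171% higher over all probe sets (0.387% either way). The arrays did not overlap for 2 of the 5 (LMO3 and LMO4, both lower), against 5.85% lower and 2.11% higher over all probe sets. SOX11 siRNA against untreated cells gave LMO3 lower and 0 higher, against 1.60% lower and 0.805% higher over all probe sets (2.40% either way). LMO3 was also the 1 member whose arrays did not overlap there, against 5.54% lower and 2.30% higher, and 2 of 5 (LMO3 and LMO4) had an unadjusted p under 0.05, against 14.9%. The 5 genes were chosen with results of these data known, so these shares describe them and nothing more. All 5 had a mean signal above that of the median probe set, whereas the background includes the dimmer probe sets too. The median log2 fold change of all probe sets was 0.01, -0.06 and -0.06 in these comparisons, taken in turn, and that of the 4 members other than LMO3 was 0.04, -0.09 and -0.12.

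Of 27 listed partners of LMO proteins and LDB1, 25 were measured, and 1 passed the test in any of the 3 comparisons. RLIM and RBBP8 were not analysed here. Between the siRNA groups 0 rose and 0 fell in limma, against 0.183% of all probe sets called, 2 of 25 had an unadjusted p under 0.05, against 4.26%, and the one-way analysis of variance called 0. The lowest p was that of KDM1A, a histone demethylase found in LMO and TAL1 complexes, with a signal of 654 ± 79.1 for SOX11 siRNA and 870.0 ± 60.6 for control siRNA (SD, n = 4 each; log2 fold change -0.41, standard error 0.103, adjusted p = 0.239). TCF12, an E protein that pairs with TAL1 (-0.21), and LMX1B, a LIM homeodomain factor (0.19), had adjusted p-values of 1. The median log2 fold change of the partners was -0.02, against 0.01 for all probe sets.

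Against untreated cells, control siRNA gave 0 higher and 0 lower among the 25 partners in limma, with 2 at an unadjusted p under 0.05 against 8.57% of all probe sets, and 0 by the one-way analysis of variance. The smallest p-values were those of NHLH2, a neuronal basic helix-loop-helix factor (log2 fold change -0.22, adjusted p = 0.464), SSBP2, which stabilizes LDB1 (-0.22, adjusted p = 0.557), and CBFA2T3, a corepressor of LDB1 complexes (0.22, adjusted p = 0.598). The median of the partners was -0.06, as it was for all probe sets. With SOX11 siRNA 1 partner fell. KDM1A was at 654 ± 79.1 with SOX11 siRNA against 930.0 ± 64.4 in untreated cells (SD, n = 4 each; -0.50 on the log2 scale, limma adjusted p = 0.0167), where 1.60% of all probe sets were lower. Its adjusted p was 0.0199 to 0.0578 without 1 array, and the call was lost without untreated replicate 3 or 4. TAL1, LYL1 and SSBP3 did not pass in any comparison, and LDB2, the paralog of LDB1, was dim at 24.5 ± 1.67 with SOX11 siRNA, 25.7 ± 3.59 with control siRNA and 31.5 ± 4.96 in untreated cells (SD, n = 4 each).

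**Figure D4:**
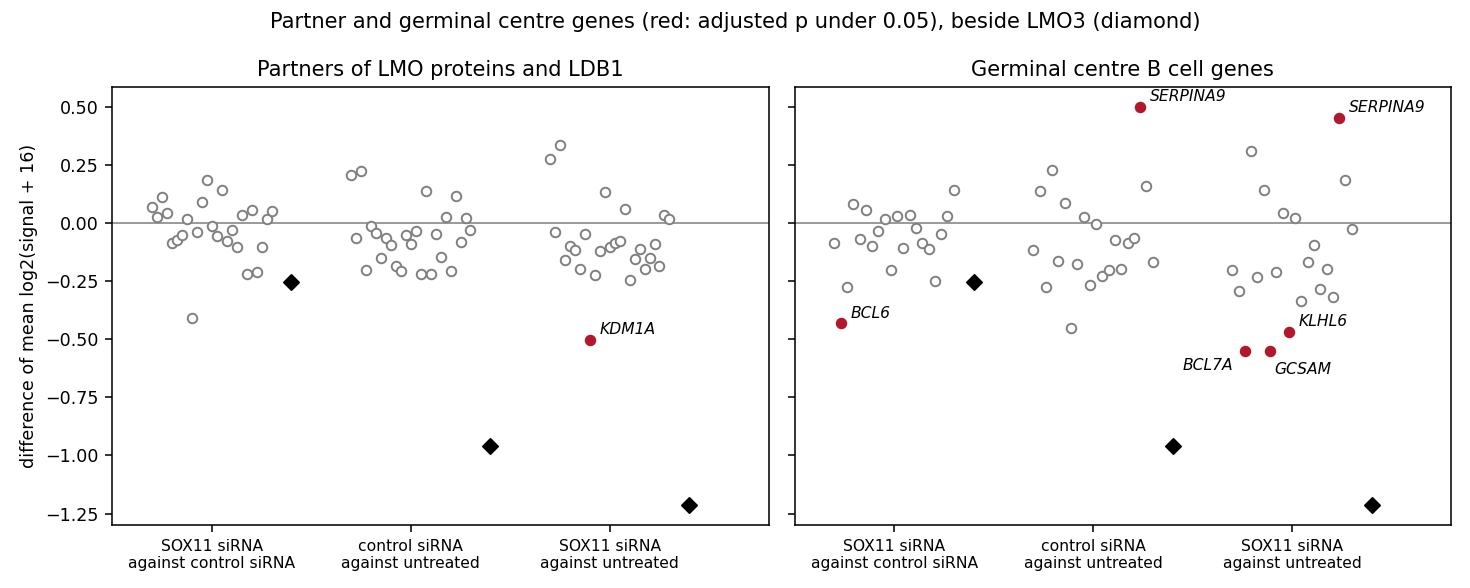
Differences of mean log2(signal + 16) (y axis) for the 25 measured partners of LMO proteins and LDB1 and the 20 measured germinal centre B cell genes in the 3 comparisons (x axis), with calls at an adjusted p under 0.05 in red and LMO3 as a diamond. Against untreated cells LMO3, at -0.96 and -1.21, lies below every gene of both lists.

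LMO2 is commonly read as a germinal centre gene in B cell lymphoma, and 20 of 23 genes of a germinal centre list were measured (EBF1 and MEF2B share their probe sets with other symbols). The list also holds PRDM1, IRF4, FOXP1 and CD27, which are not confined to that stage. Its counts and medians therefore do not describe that stage alone. Between the siRNA groups 1 fell and 0 rose. BCL6, the master repressor of germinal centre B cells, was at 52.4 ± 4.32 with SOX11 siRNA, 76.2 ± 2.05 with control siRNA and 67.8 ± 3.67 in untreated cells (SD, n = 4 each), with SOX11 siRNA below control siRNA by -0.43 on the log2 scale (limma adjusted p = 0.0477), where 0.180% of all probe sets were lower. This call was lost without any one of the 12 arrays (adjusted p = 0.0747 to 0.214). The BCL6 probe set was dim, with each group mean below 82.9, the mean signal of the median probe set. BCL7A and S1PR2 followed by p, at -0.27 and -0.25, each with an adjusted p of 1.

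With control siRNA against untreated cells, 1 of the 20 rose and 0 fell, where 0.171% of all probe sets were higher and 0.216% lower. SERPINA9, a serpin of germinal centre B cells, was at 108 ± 6.46 with control siRNA against 71.5 ± 4.02 in untreated cells (SD, n = 4 each; 0.50 on the log2 scale, limma adjusted p = 0.0279), and the call was lost without control siRNA replicate 1, 2 or 3 or any one untreated array (adjusted p = 0.0141 to 0.112 without 1 array). GCSAM, a germinal centre signalling adaptor, had -0.45 (adjusted p = 0.0566) and KLHL6, a ubiquitin ligase adaptor of B cells, -0.27 (adjusted p = 0.469). With SOX11 siRNA against untreated cells 3 fell and 1 rose, where 1.60% of all probe sets were lower and 0.805% higher. GCSAM was at 1214 ± 126 against 1781 ± 79.7 in untreated cells (SD, n = 4 each; log2 fold change -0.55, adjusted p = 0.00607 from limma), a call kept without each array. BCL7A (-0.55, adjusted p = 0.0177) lost its call without SOX11 siRNA replicate 2 or untreated replicate 2, 3 or 4 (highest adjusted p 0.0589). KLHL6 (-0.47, adjusted p = 0.0273) lost it without untreated replicate 1, 2 or 4 (highest adjusted p 0.108). SERPINA9 (0.45, adjusted p = 0.0176) lost it without untreated replicate 1 or 2 (highest adjusted p 0.0650). The list's median was -0.06, -0.10 and -0.20 in the 3 comparisons, against 0.01, -0.06 and -0.06 for all probe sets. The latter include 12083 probe sets that list no symbol and were not matched to the list by brightness. Among the cell type markers, 2 moved in the comparisons with untreated cells in which LMO3 fell. CD22, a B cell receptor coreceptor, was lower, with log2 fold changes of -0.48 for SOX11 siRNA and -0.53 for control siRNA (adjusted p = 0.0118 and 0.0169 from limma). The other 4 B cell markers did not pass, with log2 fold changes of -0.19 to 0.04 for SOX11 siRNA and -0.08 to 0.0019 for control siRNA. KRT18, a keratin listed as an epithelial marker, averaged 163 with SOX11 siRNA and 159.7 with control siRNA, against 104 in untreated cells (log2 fold changes of 0.57 and 0.56, adjusted p = 0.0203 and 0.062 from limma), so it was called higher with SOX11 siRNA. The summed signal of the 5 epithelial markers was 473 to 664, 483 to 639 and 479 to 557 in these groups, and that of the 5 B cell markers 7330 to 9023, 7344 to 8716 and 7884 to 8915. The part of these markers in the results was not tested.

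Over the 12 arrays the members' signals were related in a loose way, given here as a description. LMO1 and LMO2 had a Pearson's r of 0.722, LMO1 and LMO4 0.675, and LMO3 and LMO4 0.815. After each group's mean was taken off, these were 0.734, 0.822 and 0.546, with array scale as a shared source in all of them. LDB1 had a Pearson's r of -0.11 to 0.229 with the LMO genes, and of 0.146 to 0.455 after the group means were taken off, the highest with LMO1. The genes most like the other members were CNTD1 for LMO1 (r = 0.931), TNFAIP8L3 for LMO2 (0.908), CDC25C, a mitotic phosphatase, for LMO4 (0.974) and DCAF16 for LDB1 (0.970), and none of these 4 was called in the 2 comparisons with control siRNA.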

How the data were processed

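Gene expression was measured on 12 Affymetrix Human Gene 1.0 ST arrays, in 3 groups of 4 (SOX11 siRNA, control siRNA, untreated Granta 519 cells). The authors deposited linear intensity values, which per the file headers are PLIER signals with GC-matched background correction and global median normalization, made in Affymetrix Expression Console 1.1. Their own statistics used RMA values, which were not used here. Both tables of values differ in 0 cells. Columns of group means, fold changes and p-values between groups were not used. No genome build is named for these values in the sources used here. Of the probe sets, 19460 list 1 symbol, 1754 several and 12083 none, in an annotation that can be old. For 19429 the gene ID was found in RefSeq, and 0 symbols changed.

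Here log2(value + 16) of all 33297 probe sets was fitted in limma 3.58.1 (R 4.3.3, lmFit and eBayes), with the 3 groups in one fit and adjustment by Benjamini and Hochberg. The method was tested on simulated data. The genes named are the 5 members, SOX11, list genes that were called or had the 3 smallest p-values of a comparison, the 3 probe sets most like each member, and others where the text says so. The members and lists were chosen with earlier results of these data known. Replicates were individual transfections in the siRNA groups. For untreated cells nothing says whether the samples were separate cultures, so p-values may partly measure technical spread. For arrays no read depth applies, and their number, 4 per group, limits the precision. Promoter sequences are those of RefSeq, with windows for 4 of the 5 members.

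The values were also normalized by quantiles, centred on array medians, or logged as log2(value + 1). The genes tested were limited to those not dim (mean at least that of the median probe set) or to those with 1 symbol. The model was changed to the 8 arrays compared, one-way analysis of variance, array weights, a prior with trend and robust estimation, or a replicate block (alone and after quantile normalization). Each array was left out in turn. No member has a further probe set that lists its symbol alone. Probe sets with several symbols were not searched for the members. The comparison of LMO3 with the other members within arrays, its neighbours and the promoter motif were added after the data were seen.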

Additional observations from a re-analysis of the deposited data

Results flagged for a closer look

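Dixon's gap over range (its 95% critical value) was applied to 36 sets of 4 arrays (the members, SOX11 and the called list genes, each by group). In 2 of the 36 sets an array stood far from the other 3, where chance gives about 1 in 20. In both sets it was the same array, SOX11 siRNA replicate 3, which had the lowest median. SOX11 was at 187.51 there, with the nearest of the others at 225 (gap over range 0.919). KDM1A was at 535.87, with the nearest at 690.1 (0.962). No set of a member was beyond the critical value.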

How the results depend on the processing

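The fall of LMO3 against untreated cells was called under all 11 alternatives and without each array, for either siRNA. With quantile normalization LDB1 passed between the siRNA groups (-0.39), so 1 member was called there, and LMO4 passed between SOX11 siRNA and untreated cells (-0.34, also with the replicate block added), so 2 members were. Small differences changed sign without passing. LMO4 between the siRNA groups was at 0.015 with median centring and 0.0601 with array weights, and at -0.0915 to 0.0602 without 1 array. LMO2 with control siRNA against untreated cells was at 0.0022 with quantile normalization, with or without the block, at 0.019 with median centring and at -0.22 to 0.0313 without 1 array. LMO1 with SOX11 siRNA against untreated cells was at 0.035 with quantile normalization, with or without the block, at 0.0690 with median centring and at -0.10 to 0.03 without 1 array, and LMO2 there at -0.0767 to 0.18 without 1 array.

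Of the partners, 1 was called between the siRNA groups with quantile normalization, with or without the block. Against untreated cells with SOX11 siRNA the count was 3 in those settings, 2 with median centring and 0 to 2 without 1 array. Of the germinal centre genes, the 1 call between the siRNA groups became 0 with median centring, without dim probe sets (BCL6 was not tested there), in the fit of 8 arrays, with the trend and robust prior, the replicate block, the block with quantile normalization or array weights, and without any 1 array (0 to 0). With control siRNA against untreated cells the count of 1 was 2 with quantile normalization, with or without the block, with dim probe sets left out, over 1-symbol probe sets, in the fit of 8 arrays, with the trend and robust prior and with array weights. It was 0 with log2(value + 1), one-way analysis of variance or the replicate block, and 0 to 2 without 1 array. With SOX11 siRNA against untreated cells the count of 4 was 2 in the fit of 8 arrays (KLHL6 and SERPINA9 lost), 3 with log2(value + 1) (KLHL6 lost, adjusted p = 0.0618), 3 by one-way analysis of variance (KLHL6 and BCL7A lost, at 0.0604 and 0.0592, and 1 other gene called) and 5 with median centring or quantile normalization, with or without the block. It was 1 to 5 without 1 array. The cause of these shifts was not tested. Whether replicate numbers pair the arrays was not settled, and the main fit used no pairing. Same-numbered arrays had correlations of deviations from the group means of -0.315 to 0.444, above 0.1 in 5 of 12 pairs. The most alike array of the other group bore the same number for 5 of 12. Values this mixed can neither show nor exclude a pairing. In the column headers the untreated, control siRNA and SOX11 siRNA arrays of a replicate number follow each other. The headers do not say whether these were handled together. For its quantitative RT-PCR the paper used a paired t-test. Median centring and quantile normalization moved the median of all probe sets by under 0.1 on the log2 scale in each comparison except SOX11 siRNA against untreated cells, where it was -0.06 unadjusted and 0.04 with median centring.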
